A study of Homo sapiens with 34 samples.

Results

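Burkitt lymphoma (BL) lines were compared with lines of diffuse large B-cell lymphoma that carry the activated B-cell label (ABC DLBCL), in 8 of the 34 lymphoma cell lines of an RNA sequencing series on CXCR4 as a target of radioligands. The BL group was every BL line of the series, namely Daudi, Raji and Ramos (n = 3). The ABC DLBCL group was HBL-1, MD903, OCI-Ly10, OCI-Ly3 and SU-DHL-8 (n = 5), which were 5 of the 6 lines with that label. NU-DUL-1 was left out because its library was of another type, with 0 reads of ZNF593 and EMC6. Libraries were sorted into types here by these genes, and the first type was defined as having reads of both. The other lines of the series were 11 of mantle cell lymphoma and 14 of the germinal centre type of diffuse large B-cell lymphoma (GCB DLBCL). All 8 lines were established human lines with 1 total RNA library each, and the labels named no treatment, genotype or culture time for any of them. The lines served as replicates, so p-values measured the spread between lines and not between cultures of a line. The labels state that library preparation was spread over several dates without giving them, and 7 of the 8 were marked as re-analysed, the exception being Daudi.

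BL is a germinal centre lymphoma in which a translocation places MYC under an immunoglobulin enhancer, and its cells keep the BCL6-driven programme of the germinal centre. ABC DLBCL resembles B cells that leave the germinal centre towards plasma cells, with high IRF4 and chronic signalling through the B-cell receptor, MYD88 and NF-kB. Among the lines, Daudi and Raji are known carriers of Epstein-Barr virus and Ramos is known to be free of it.

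Levels are variance-stabilised read counts on a log2 scale, on which a gene with 0 reads sat at 4.55. The scale compresses differences near that value, and levels of different genes are not comparable because they are not corrected for length. Values of BL lines are given in the order Daudi, Raji, Ramos, and those of ABC DLBCL lines in the order HBL-1, MD903, OCI-Ly10, OCI-Ly3, SU-DHL-8. Differences are BL minus ABC DLBCL in log2 units with the standard error (SE) and Benjamini-Hochberg adjusted p of limma over 15261 genes, and a gene was called past the threshold at an adjusted p under 0.05. In these bulk samples, fewer cells that express a gene and less RNA of it per cell cannot be told apart.

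Recovered depth was 22.6 to 92.4 M reads in BL lines and 81.2 to 165 M in ABC DLBCL lines, with M for 1e6 reads, and 30.6 to 35.3% of genes in BL lines and 22.0 to 28.9% in ABC DLBCL lines had 0 reads. Mitochondrially encoded genes took 3.80 to 4.805% of the reads of BL lines and 8.38 to 11.02% of those of ABC DLBCL lines. The part of depth and of the mitochondrial share in the results below was not tested. B-cell identity markers summed to 3775 to 4968 CPM (reads per 1e6 reads) in BL lines and 2336 to 5529 in ABC DLBCL lines. T-cell markers summed to at most 45.9 and 75.7 CPM in BL and ABC DLBCL lines, mostly from TRAC except in OCI-Ly3, with GZMA at 0 reads in all 8. Myeloid markers reached at most 4.47 in BL and 9.48 in ABC DLBCL lines, with S100A8 at 0 reads in all 8, and stromal markers at most 4.51 and 47.8. Epithelial markers lay between 0.0169 and 0.0757 CPM in BL lines and between 0.0548 and 73.8 in ABC DLBCL lines, through EPCAM in HBL-1 and MD903 (8.76 and 10.55) and KRT8 in OCI-Ly10 (11.71). SU-DHL-8 stood apart within its group: TNFRSF13B was at 4.55, CREB3L2 at 4.82 and BATF at 6.86, all markers of the activated type, while MME, a germinal centre marker, was at 11.44. MD903 shared part of this, with BATF at 9.17 and MME at 8.92, so values without SU-DHL-8 or MD903 are given beside the results they change.

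BL and ABC DLBCL differed past the threshold in 51 of the 15261 genes tested, which is 0.334%. BL was higher in 40 genes (0.262%) and lower in 11 (0.0721%), and in all 51 the groups did not overlap. Without regard to the test, every BL line was above every ABC DLBCL line in 666 genes (4.36%) and below in 640 (4.19%). At an unadjusted p under 0.05 there were 1861 genes, and the median difference of all genes tested was -0.05. Of the 40 higher genes, 20 lay within 1 log2 unit of 0 reads in all ABC DLBCL lines and so entered the test only through BL, as 59 genes did in all. The converse held for 3 of the 11 lower genes, among 720 that entered through ABC DLBCL only. The filter asked for at least 3 lines above 0 reads by 1 log2 unit. Entry through BL only thus needed all 3 BL lines, whereas entry through ABC DLBCL only needed any 3 of its 5 lines. Because entry was stricter on the BL side, the 59 and 720 genes, and the 20 and 3 calls among them, cannot be compared directly. Genes silent in one group could be tested only where the other group expressed them. Leaving out SU-DHL-8 raised the count to 166 genes, 78 higher and 88 lower, with all 51 among them. Without OCI-Ly10 it was 29 (20 higher, 9 lower) and without OCI-Ly3 27 (19 higher, 8 lower). The lower genes alone numbered 17 without Raji, 26 without Ramos and 21 without MD903. All 51 kept their direction whichever line was left out, which was fixed in advance because the groups did not overlap.

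**Figure D1:**
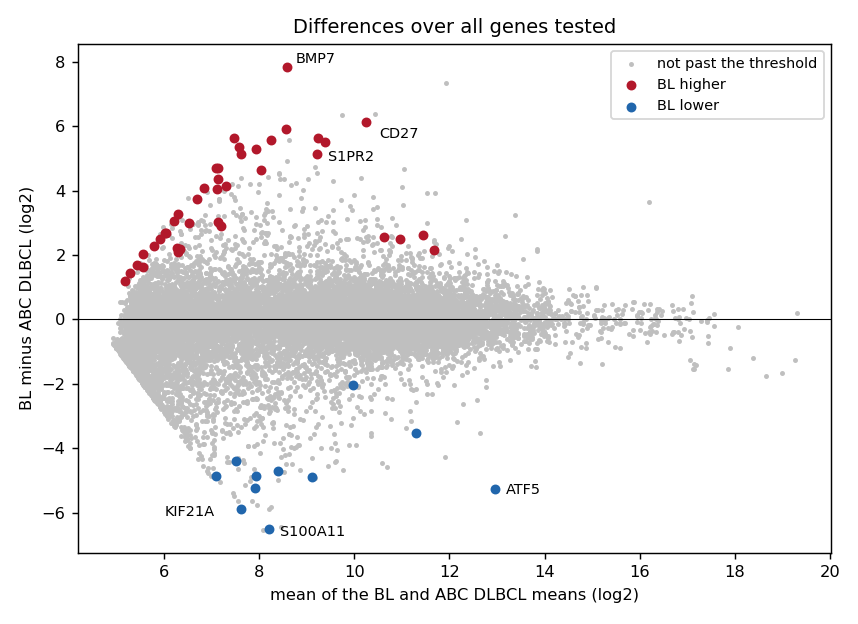
Difference between BL (n = 3) and ABC DLBCL (n = 5) lines, in log2 units, against the mean of the 2 group means for each of the 15261 genes tested; red points are the 40 genes past the threshold that were higher in BL, blue points the 11 that were lower, and grey points the rest. Of the 40 red points, 20 were within 1 log2 unit of 0 reads in all ABC DLBCL lines, and ATF5 stands out among the blue points by its high level.

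The secreted and surface molecules higher in BL included a growth factor, receptors and a glycolipid enzyme. BMP7, a secreted ligand of the TGF-beta family, was at 13.47, 11.75 and 12.28 in BL lines, against 4.55, 4.76, 4.55, 4.70 and 4.74 in ABC DLBCL lines. No ABC DLBCL line had more than 1 read of it, and the difference of 7.84 (SE 0.46, adjusted p = 0.000722) was the highest among the called genes. CD27, the receptor of CD70 that marks germinal centre and memory B cells, was at 12.06, 14.32 and 13.58 in BL lines, against 6.30, 8.55, 7.69, 5.17 and 8.20 in ABC DLBCL lines. The lowest BL line, Daudi, lay well above the highest ABC DLBCL line, MD903, and the difference was 6.14 (SE 0.84, adjusted p = 0.0226). S1PR2, which confines B cells to the germinal centre, was at 11.71, 12.20 and 11.46 in BL lines, against 8.23, 5.50, 6.84, 7.58 and 5.12 in ABC DLBCL lines. The 3 BL lines were close together and HBL-1 was the nearest of the others, with a difference of 5.14 (SE 0.74, adjusted p = 0.0265).

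A4GALT makes the globoside Gb3, known as CD77 and long used to recognise BL cells. Its levels were 10.23, 10.72 and 10.83 in BL lines, against 5.02, 7.37, 4.77, 4.55 and 4.74 in ABC DLBCL lines, where MD903 alone exceeded 5.02. The groups did not overlap, with a difference of 5.30 (SE 0.67, adjusted p = 0.0151). INSR, the insulin receptor, was at 9.28, 8.93 and 10.12 in BL lines, against 4.82, 4.91, 4.55, 4.55 and 4.93 in ABC DLBCL lines, where it was nearly silent. Its difference was 4.69 (SE 0.37, adjusted p = 0.00163). KCNN3, a calcium-activated potassium channel, was at 12.44, 12.43 and 11.31 in BL lines, against 6.06, 6.99, 5.996, 7.20 and 5.83 in ABC DLBCL lines, a difference of 5.65 (SE 0.50, adjusted p = 0.00299). ADAM23, a membrane protein of the ADAM family without protease activity, was at 9.19, 10.28 and 11.30 in BL lines, against 4.75, 4.55, 5.43, 4.95 and 4.82 in ABC DLBCL lines, a difference of 5.36 (SE 0.51, adjusted p = 0.00343). KCNN3 was present at a low level in every ABC DLBCL line, whereas ADAM23 had at most 17 reads in any of them.

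Signalling and transcription regulators formed the next group. DEPTOR, an inhibitory partner of mTOR, was at 12.08, 10.27 and 12.21 in BL lines, against 5.24, 5.50, 5.88, 5.46 and 5.94 in ABC DLBCL lines. Raji was the lowest BL line and still far above every ABC DLBCL line, with a difference of 5.91 (SE 0.53, adjusted p = 0.00299). MYBL1, the germinal centre transcription factor A-MYB, was at 12.68, 11.68 and 12.07 in BL lines, against 6.06, 7.02, 5.75, 5.77 and 8.52 in ABC DLBCL lines, where SU-DHL-8 was the highest. The difference was 5.52 (SE 0.68, adjusted p = 0.0128). GNG7, a gamma subunit of heterotrimeric G proteins, was at 11.76, 11.77 and 9.57 in BL lines, against 7.15, 5.06, 4.77, 4.81 and 5.45 in ABC DLBCL lines. HBL-1 stood above the other 4 ABC DLBCL lines, and the difference was 5.58 (SE 0.74, adjusted p = 0.0193). KLF15, a Kruppel-like zinc finger factor, was at 9.69, 10.50 and 10.40 in BL lines, against 5.62, 6.01, 4.55, 4.55 and 4.55 in ABC DLBCL lines. OCI-Ly10, OCI-Ly3 and SU-DHL-8 had 0 reads of it, and the difference was 5.14 (SE 0.49, adjusted p = 0.00357).

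KLF15 was the only one of the 9 named higher genes with a promoter window in the RefSeq table (GRCh38.p14) whose window held the E-box CACGTG, the palindrome bound by MYC with MAX and by other basic helix-loop-helix factors. Over all 27305 windows, each from 250 bases before to 50 after the start, 7.43% held it. TTCNNNGAA, held by 7.88% of all windows and searched on both strands, was in none of the 9 windows of higher genes and 7 of lower genes. The motif reads the same on both strands and no other motif searched overlapped it. The window, at chr3:126357359-126357658 on the minus strand, is shown with the E-box in capitals, which begins at base -46, counted from the start.
KLF15: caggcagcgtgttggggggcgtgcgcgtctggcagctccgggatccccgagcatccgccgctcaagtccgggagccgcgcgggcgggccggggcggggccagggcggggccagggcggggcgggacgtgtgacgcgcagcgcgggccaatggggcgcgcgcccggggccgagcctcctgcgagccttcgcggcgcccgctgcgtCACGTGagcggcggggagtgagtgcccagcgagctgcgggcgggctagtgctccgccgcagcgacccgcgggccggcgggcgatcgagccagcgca

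The remaining named higher genes were KIAA1549L, a long non-coding RNA and an immunoglobulin segment. KIAA1549L was at 11.42, 9.04 and 10.44 in BL lines, against 4.55, 4.55, 4.55, 4.77 and 4.88 in ABC DLBCL lines, a difference of 5.64 (SE 0.52, adjusted p = 0.00299). IFNG-AS1, a long non-coding RNA next to the interferon gamma gene, was at 9.64, 9.67 and 9.18 in BL lines, against 4.75, 5.01, 4.77, 4.86 and 4.55 in ABC DLBCL lines, a difference of 4.71 (SE 0.31, adjusted p = 0.000996). Both had at most 5 reads in any ABC DLBCL line, and the 3 BL lines were close together for IFNG-AS1. IGLV6-57, a lambda light chain variable segment, was at 9.92, 10.41 and 10.79 in BL lines, against 5.54, 5.26, 4.98, 7.07 and 5.75 in ABC DLBCL lines, a difference of 4.65 (SE 0.54, adjusted p = 0.0106). Reads of variable segments can be split with near-identical copies, and IGLVI-56, 2448 bases away, was also called. HNRNPA1P70, a pseudogene 14372 bases from IFNG-AS1, was called too, and the strand setting of the counting is not given in the sources used here.

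Among the 14 named higher genes, the call was lost without 1 line or another in 5. S1PR2 missed the threshold without Daudi (adjusted p = 0.104), Raji (0.101), Ramos (0.0720), OCI-Ly10 (0.0739) or OCI-Ly3 (0.0583), and A4GALT without the same lines (0.0513, 0.0530, 0.0506, 0.0560 and 0.0583). CD27 missed it without Raji (0.0835), Ramos (0.0785), HBL-1 (0.0576) or OCI-Ly10 (0.0588), GNG7 without Daudi (0.0814), Raji (0.0666), OCI-Ly10 (0.0588) or OCI-Ly3 (0.0648), and MYBL1 without Daudi (0.0698). Over the 21 alternatives run, adjusted p ran from 0.00513 to 0.104 for S1PR2, 0.00229 to 0.0583 for A4GALT, 0.00549 to 0.110 for CD27, 0.0135 to 0.345 for GNG7 and 0.00195 to 0.0698 for MYBL1. The remaining named genes kept the call with each line left out in turn, but 4 of them lost it in other alternatives. With NU-DUL-1 added, INSR had a difference of 3.42 and an adjusted p of 0.504, and KCNN3 one of 4.87 and 0.120. NU-DUL-1 itself had INSR at 12.38 and GNG7 at 11.90, above every BL line. The highest adjusted p of KIAA1549L was 0.122 and that of IGLV6-57 0.177, both in a fit over all 34 lines. BMP7, DEPTOR, ADAM23, KLF15 and IFNG-AS1 passed in all 21. Of these, BMP7, ADAM23 and IFNG-AS1 lay within 1 log2 unit of 0 reads in every ABC DLBCL line and entered the test only through BL. Their spread in ABC DLBCL was held low by the floor of the scale, so passing throughout is weaker support for them than it appears.

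Among the 26 other higher genes, singled out after their values were seen, 4 were well expressed in both groups. RRM2B, a p53-inducible subunit of ribonucleotide reductase, was at 13.07, 12.73 and 12.45 in BL lines, against 10.58, 10.02, 10.64, 10.07 and 9.33 in ABC DLBCL lines (difference 2.63, SE 0.34, adjusted p = 0.0173). RNF19B, a ubiquitin ligase, differed by 2.57 (SE 0.35, adjusted p = 0.0216), PLEKHF2, an endosomal protein, by 2.495 (SE 0.30, adjusted p = 0.0125) and TPD52, a regulator of vesicle traffic, by 2.14 (SE 0.26, adjusted p = 0.0125). Each of the 4 had at least 846 reads in every line. TNFRSF1A, the receptor 1 of tumour necrosis factor, was at 8.20, 8.20 and 10.26 in BL lines and had at most 10 reads in any ABC DLBCL line (difference 4.09, SE 0.50, adjusted p = 0.0128). Of the 33 higher genes with a known chromosome, 5 lay on chromosome 8, namely DEPTOR, MYBL1, RRM2B, PLEKHF2 and TPD52, while 3.22% of the tested genes lay there and their median difference was 0.11. Chromosome 8 was the only chromosome counted in this way. The higher genes CD27, TNFRSF1A, IFNG-AS1 and HNRNPA1P70 shared chromosome 12, for which no share of the tested genes was taken. Copy number was not tested.

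The genes lower in BL were led by calcium-binding, motor and transcription proteins. S100A11, a calcium-binding protein of the S100 family, was at 4.55, 4.96 and 5.36 in BL lines, against 10.23, 11.23, 11.30, 12.22 and 12.37 in ABC DLBCL lines. No BL line had more than 11 reads, and the difference of -6.51 (SE 0.53, adjusted p = 0.00204) was the lowest among the called genes. KIF21A, a kinesin motor, was at 4.55, 4.55 and 4.90 in BL lines, against 10.37, 10.02, 11.16, 10.94 and 10.24 in ABC DLBCL lines. Ramos had 2 reads and the other BL lines none, and the difference was -5.88 (SE 0.41, adjusted p = 0.000996). HDGFL3, a member of the hepatoma-derived growth factor family, was at 4.55, 4.55 and 4.90 in BL lines, against 9.44, 9.34, 10.01, 9.40 and 9.49 in ABC DLBCL lines. It had at most 2 reads in a BL line, and the difference was -4.87 (SE 0.37, adjusted p = 0.00163). RDX, the membrane-to-actin linker radixin, was at 5.14, 4.76 and 6.65 in BL lines, against 10.56, 9.54, 10.13, 10.99 and 10.60 in ABC DLBCL lines, a difference of -4.85 (SE 0.54, adjusted p = 0.00934).

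Transcription and chromatin factors came next. ATF5, a bZIP factor of the stress response, was at 10.20, 9.69 and 11.12 in BL lines, against 16.53, 15.89, 15.61, 14.46 and 15.49 in ABC DLBCL lines. It was expressed in both groups, at 865 to 3134 reads in BL lines and 86613 to 226432 in ABC DLBCL lines, and the difference was -5.26 (SE 0.48, adjusted p = 0.00299). BHLHE40, a basic helix-loop-helix repressor that binds CACGTG, was at 4.55, 6.34 and 4.98 in BL lines, against 10.47, 9.56, 11.80, 10.29 and 10.48 in ABC DLBCL lines. Raji was the highest BL line at 86 reads, and the difference was -5.23 (SE 0.60, adjusted p = 0.0105). TET2, which oxidises 5-methylcytosine in DNA, was at 5.14, 8.04 and 4.98 in BL lines, against 10.99, 10.25, 11.87, 10.17 and 10.49 in ABC DLBCL lines. Daudi and Ramos had 3 reads each while Raji had 457, and the difference was -4.70 (SE 0.75, adjusted p = 0.0472).

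BHLHE40 and TET2 were the pair among the 7 named lower genes with a RefSeq promoter window (GRCh38.p14) whose windows held CACGTG. The E-box, in capitals, begins at base -245 in BHLHE40 (chr3:4979187-4979486, plus strand) and at base -14 in TET2 (chr4:105145625-105145924, plus strand).
BHLHE40: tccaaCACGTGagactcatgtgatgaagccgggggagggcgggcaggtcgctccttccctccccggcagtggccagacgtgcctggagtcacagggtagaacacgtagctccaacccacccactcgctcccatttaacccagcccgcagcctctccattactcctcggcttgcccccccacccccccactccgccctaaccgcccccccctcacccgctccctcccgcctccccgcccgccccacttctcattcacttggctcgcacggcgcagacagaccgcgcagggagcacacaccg
TET2: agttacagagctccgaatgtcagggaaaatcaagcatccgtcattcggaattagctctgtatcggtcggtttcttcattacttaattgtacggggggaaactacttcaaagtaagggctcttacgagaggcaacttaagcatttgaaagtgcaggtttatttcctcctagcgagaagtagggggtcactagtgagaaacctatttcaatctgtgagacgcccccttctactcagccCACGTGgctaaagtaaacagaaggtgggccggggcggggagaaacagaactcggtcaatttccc

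Signalling and scaffold genes completed the lower group. LIMD1, a LIM domain scaffold, was at 7.34, 5.56 and 7.08 in BL lines, against 11.96, 10.93, 11.74, 12.18 and 11.02 in ABC DLBCL lines, a difference of -4.91 (SE 0.50, adjusted p = 0.00521). CCDC50, a ubiquitin-binding adaptor, was at 9.99, 9.88 and 8.71 in BL lines, against 14.05, 11.71, 13.69, 12.95 and 12.83 in ABC DLBCL lines, a difference of -3.52 (SE 0.54, adjusted p = 0.0395). UAP1L1, a relative of an enzyme of nucleotide sugar synthesis, was at 9.21, 8.68 and 8.997 in BL lines, against 10.80, 11.37, 10.87, 10.67 and 11.25 in ABC DLBCL lines, a difference of -2.03 (SE 0.28, adjusted p = 0.0242). CCDC50 and UAP1L1 were expressed in every line of both groups, and no BL line reached the lowest ABC DLBCL line in any of the 3 genes.

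Of the lower genes described, 3 lost the call without 1 line or another. CCDC50 missed the threshold without Daudi (adjusted p = 0.1001), Raji (0.0835), Ramos (0.111), HBL-1 (0.0746), OCI-Ly10 (0.111) or OCI-Ly3 (0.107), and TET2 without Daudi (0.139), Ramos (0.119), HBL-1 (0.124), MD903 (0.0650), OCI-Ly10 (0.119) or OCI-Ly3 (0.107). UAP1L1 missed it without Raji (0.0799), Ramos (0.0599), HBL-1 (0.0576), MD903 (0.0549), OCI-Ly10 (0.0739) or OCI-Ly3 (0.0596). Over the 21 alternatives, adjusted p ran from 0.00549 to 0.407 for CCDC50, from 0.000861 to 0.219 for TET2 and 0.0220 to 0.226 for UAP1L1. Another 5 kept it with each line left out in turn but lost it in other alternatives. With voom, limma's method for counts, on the recovered reads, the adjusted p was 0.219 for S100A11, 0.219 for BHLHE40, 0.145 for RDX and 0.0541 for LIMD1. ATF5 had 0.307 with NU-DUL-1 added, whereas KIF21A and HDGFL3 passed in all 21. These last genes lay within 1 log2 unit of 0 reads in every BL line and entered the test only through ABC DLBCL. Their spread in BL was held low by the floor of the scale.

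**Figure D2:**
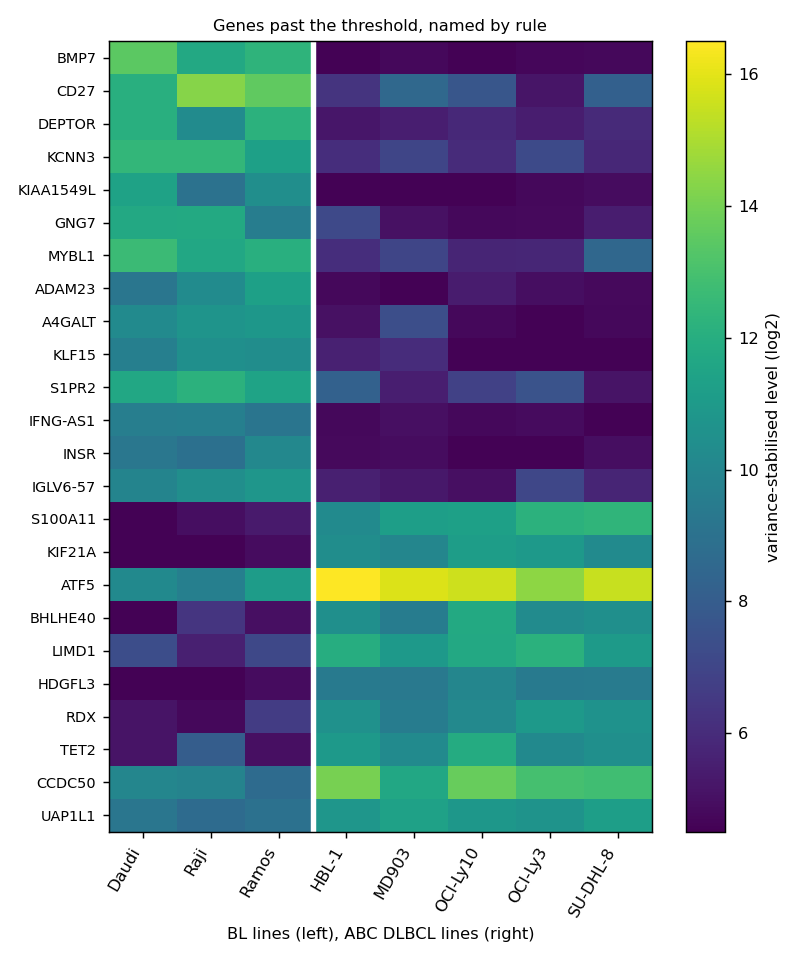
Level of the 14 named higher and 10 of the lower genes (rows) in the 3 BL lines, left of the white line, and the 5 ABC DLBCL lines, right of it, as the variance-stabilised level in log2 units by colour. The top 14 rows are bright only on the left and the bottom 10 brighter on the right, with ATF5 at 14.46 to 16.53 in ABC DLBCL lines.

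Genes that separate the cell of origin of diffuse large B-cell lymphoma were taken next, many of them described after their values were seen, from the Lymph2Cx assay and from lists of germinal centre and activated-type genes. In the germinal centre list, 2 of 18 genes tested were higher in BL and 0 lower, every BL line was above every ABC DLBCL line in 8, and the median difference was 2.37 against -0.05 over all genes. For this and every later list, the shares over all genes tested were 0.262% called higher and 0.0721% called lower. Every BL line was above every ABC DLBCL line in 4.36% of all genes and below in 4.19%. The 2 called in the germinal centre list were MYBL1 and S1PR2, which also made up the 2 of 7 called among the GCB genes of Lymph2Cx (median 4.29). MME, the surface peptidase CD10, was at 14.002, 12.62 and 14.26 in BL lines, against 4.82, 8.92, 5.56, 5.52 and 11.44 in ABC DLBCL lines. MD903 and SU-DHL-8 were the ABC DLBCL lines with a clear MME level, and the difference of 6.37 had a wide error (SE 1.45, adjusted p = 0.146). Without SU-DHL-8 it was 7.42 with an adjusted p of 0.0152 (range 0.00195 to 0.358), where a range is that of the adjusted p over all alternatives run for the gene. Genes given with such a range passed in only 1 to 3 of their 20 or 21 alternatives, or 6 for MX2. The line left out was picked because the call changed without it, often the line against the difference. Those adjusted p-values therefore show dependence on 1 line and add no support to a difference. LMO2, a germinal centre transcription cofactor, was at 6.17, 8.96 and 9.59 in BL lines, against 5.83, 4.84, 5.75, 5.98 and 5.05 in ABC DLBCL lines, with a difference of 2.75 (SE 0.74, adjusted p = 0.222). Daudi was close to the ABC DLBCL range, and without Daudi the difference was 3.78 with an adjusted p of 0.0257 (range 0.0257 to 0.463).

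BCL6, the repressor that maintains the germinal centre state, was at 13.29, 13.27 and 13.60 in BL lines, against 12.88, 13.25, 12.57, 10.68 and 7.43 in ABC DLBCL lines. Every BL line was above every ABC DLBCL line, but MD903 was nearly level with Raji while SU-DHL-8 was far lower, and the difference of 2.02 was not past the threshold (SE 1.20, adjusted p = 0.516). SERPINA9, a germinal centre serpin, ranged as widely within the groups as between them, at 9.24, 12.93 and 5.10 in BL lines and 9.30, 4.55, 6.69, 11.63 and 4.74 in ABC DLBCL lines.

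The promoter window of BCL6 (chr3:187745419-187745718, minus strand, RefSeq GRCh38.p14) is shown because it held 4 matches, in capitals, to TTCNNNGAA, a palindrome of the kind that STAT factors and BCL6 bind. They begin at bases -28, -5, 11 and 37 from the start, do not overlap each other, and the motif is its own reverse complement, so the search covered both strands, and 7.88% of all windows held at least 1 such match.
BCL6: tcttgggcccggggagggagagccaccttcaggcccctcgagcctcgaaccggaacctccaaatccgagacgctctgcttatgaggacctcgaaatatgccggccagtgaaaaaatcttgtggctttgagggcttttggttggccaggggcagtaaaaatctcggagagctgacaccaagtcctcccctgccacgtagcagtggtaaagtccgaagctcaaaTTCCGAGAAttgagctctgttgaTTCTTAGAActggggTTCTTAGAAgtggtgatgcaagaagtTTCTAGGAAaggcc

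In the activated-type signature, 0 of 18 genes tested were called in either direction by limma and 4 had an unadjusted p under 0.05, although 17 of 18 differences were negative and the median was -2.25. Wherever limma called 0 genes of a list, voom on the recovered reads called 0 too, except for 1 mitochondrially encoded gene. Voom called only 21 of the 15261 genes, so 0 in so small a list could hardly have come out otherwise and adds no support. Other alternatives did call members. The fit of all libraries of the first type called 1 gene of this signature and 1 plasma cell gene. FOXP1 and PTPN1 were the genes of the signature with every BL line below every ABC DLBCL line. FOXP1, a transcription factor of activated B cells, was at 10.57, 10.13 and 10.74 in BL lines, against 13.43, 11.26, 13.64, 13.62 and 12.05 in ABC DLBCL lines (difference -2.32, SE 0.57, adjusted p = 0.179). PTPN1, a tyrosine phosphatase that acts on JAK kinases, was at 10.62, 10.49 and 10.58 in BL lines, against 14.26, 12.07, 14.79, 15.09 and 12.55 in ABC DLBCL lines (difference -3.19, SE 0.69, adjusted p = 0.127). The BL lines were close together for both genes, and the spread was wider in ABC DLBCL. The ABC genes of Lymph2Cx had 2 of 8 called, LIMD1 and CCDC50, both lower in BL, and a median of -3.68. CYB5R2, a reductase in that set, was at 4.55, 5.05 and 4.55 in BL lines, against 13.36, 4.76, 13.29, 12.99 and 6.62 in ABC DLBCL lines, high in HBL-1, OCI-Ly10 and OCI-Ly3 and near silence in MD903 (difference -5.48, SE 2.08, adjusted p = 0.356).

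IRF4, the factor of plasma cell commitment on which ABC DLBCL depends, was at 7.69, 8.54 and 13.10 in BL lines, against 14.41, 13.02, 14.95, 14.59 and 13.28 in ABC DLBCL lines. Ramos lay inside the ABC DLBCL range, Daudi and Raji far below it, and the difference was -4.28 (SE 1.11, adjusted p = 0.204). Without Ramos it was -5.94 with an adjusted p of 0.00933 (range 0.00933 to 0.437). CCND2, cyclin D2, was at 4.89, 4.84 and 5.36 in BL lines, against 15.75, 4.91, 13.67, 14.15 and 4.82 in ABC DLBCL lines, high in the same 3 lines and near silence in MD903 and SU-DHL-8 as in BL (difference -5.62, SE 2.65, adjusted p = 0.430). BATF, a partner of IRF4 on DNA, was at 6.38, 9.55 and 6.62 in BL lines, against 13.14, 9.17, 14.01, 14.38 and 6.86 in ABC DLBCL lines, with the same division (difference -3.998, SE 1.76, adjusted p = 0.409). SH3BP5, an adaptor that binds BTK, was called in the signature when SU-DHL-8 was left out, at -3.77 with an adjusted p of 0.0486 (range 0.0125 to 0.860), and without that line the germinal centre list had 3 genes called.

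**Figure D3:**
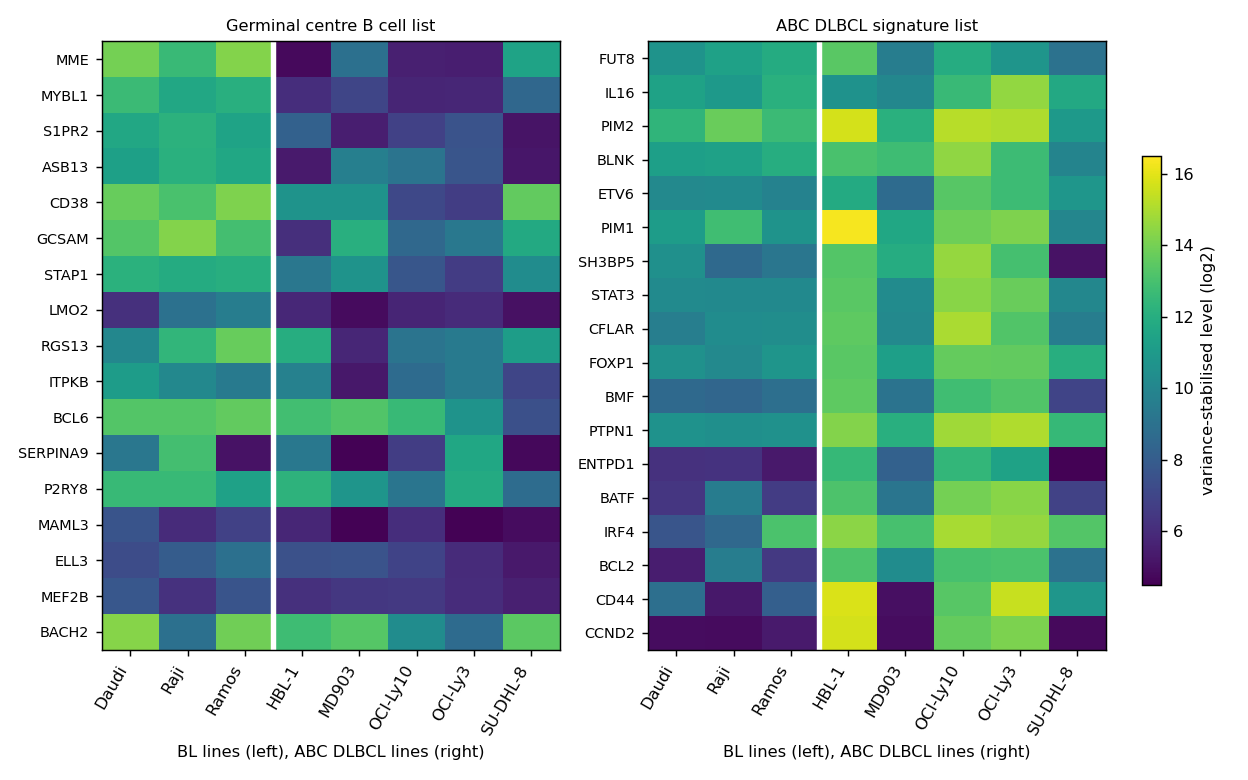
Level of 17 genes of the germinal centre list (left panel) and the 18 of the activated-type signature (right panel), ordered by difference, in BL lines (left of the white line) and ABC DLBCL lines (right of it); colour is the variance-stabilised level in log2 units. In the right panel HBL-1, OCI-Ly10 and OCI-Ly3 are bright in most rows, with medians of 13.44, 13.75 and 13.68, while MD903 and SU-DHL-8, at 10.23 and 9.96, are close to the BL lines at 10.16 to 10.30.

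Genes of plasma cell differentiation had 0 of 12 called by limma, 5 at an unadjusted p under 0.05 and a median difference of 0.27, which was -0.23 without Ramos. JCHAIN, the joining chain of polymeric immunoglobulin, was at 14.62, 15.26 and 16.94 in BL lines, against 11.29, 12.90, 5.82, 5.29 and 6.05 in ABC DLBCL lines. HBL-1 and MD903 were high among the ABC DLBCL lines and the other 3 low, and the difference of 7.34 was not past the threshold (SE 1.80, adjusted p = 0.176). XBP1, the factor of the secretory programme, was at 13.32, 13.09 and 14.80 in BL lines, against 12.60, 12.15, 11.45, 12.83 and 12.42 in ABC DLBCL lines, with no overlap (difference 1.45, SE 0.45, adjusted p = 0.278). PRDM1, the repressor that ends the B-cell programme, was at 5.83, 8.08 and 7.22 in BL lines, against 8.89, 6.27, 12.69, 12.10 and 8.25 in ABC DLBCL lines, highest in OCI-Ly10 and OCI-Ly3 (difference -2.60, SE 1.42, adjusted p = 0.481). XBP1 and JCHAIN had every BL line above every ABC DLBCL line, and PRDM1 and IRF4 had negative differences in the same list.

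MYC levels overlapped between the lymphomas. MYC, the translocated oncogene of BL, was at 13.83, 14.46 and 14.62 in BL lines, against 14.58, 14.40, 13.58, 13.85 and 14.18 in ABC DLBCL lines. HBL-1, MD903, OCI-Ly3 and SU-DHL-8 lay within the BL range, and the difference was 0.18 (SE 0.31, adjusted p = 0.849). Among 11 genes of the MYC network tested, such as MAX, MNT and the MXD genes, 0 were called by limma, 0 had an unadjusted p under 0.05 and the median was 0.12, and among 20 MYC target genes 0 were called, 2 had an unadjusted p under 0.05 and the median was -0.34. MXD3, a partner of MAX that opposes MYC, had the highest of the network differences, at 10.03, 9.40 and 11.09 in BL lines, against 9.52, 9.49, 8.59, 9.09 and 9.64 in ABC DLBCL lines (difference 0.91, SE 0.44, adjusted p = 0.438). Among the targets RCC1, a nuclear exchange factor, was highest at 0.77 (SE 0.28, adjusted p = 0.347) and TFRC, the transferrin receptor, lowest at -0.71 (SE 0.71, adjusted p = 0.718).

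The TCF3 and ID3 axis, in which ID3 blocks the E protein TCF3 and TCF3 drives CCND3, is often mutated in BL. TCF3 was at 14.35, 14.23 and 14.82 in BL lines, against 12.61, 14.79, 12.83, 12.41 and 14.89 in ABC DLBCL lines, where MD903 and SU-DHL-8 reached BL levels (difference 0.96, SE 0.64, adjusted p = 0.569). ID3 was at 13.23, 12.27 and 14.48 in BL lines, against 11.62, 13.21, 12.62, 11.24 and 12.66 in ABC DLBCL lines (difference 1.05, SE 0.58, adjusted p = 0.485), and the groups overlapped. CCND3, cyclin D3, was at 13.45, 13.41 and 13.49 in BL lines, against 11.61, 10.70, 10.20, 10.20 and 15.99 in ABC DLBCL lines. SU-DHL-8 exceeded every BL line while the other 4 ABC DLBCL lines were below all of them, so the difference of 1.71 (SE 1.21, adjusted p = 0.593) became 2.77 with an adjusted p of 0.0165 (range 0.0147 to 0.788) without SU-DHL-8. TCF4, an E protein, was at 11.89, 11.54 and 12.06 in BL lines, against 14.25, 13.40, 15.28, 14.99 and 10.60 in ABC DLBCL lines, and its difference of -1.87 (SE 0.95, adjusted p = 0.447) became -2.65 with an adjusted p of 0.0433 (range 0.00632 to 0.669) without that line. Limma called 0 of the 7 genes of this list tested, 0 at an unadjusted p under 0.05, with a median of 0.12, which was 1.02 without Daudi, 1.08 without Raji, -0.71 without Ramos and -0.26 without SU-DHL-8. Ramos stood apart in this list through ID1, at 11.24 against 5.30 and 5.36 in Daudi and Raji, and ID4, at 8.90 with 0 reads in the 7 other lines, too few for a test.

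Limma called 0 of 17 genes often mutated in BL, 2 at an unadjusted p under 0.05, with a median of 0.36. GNA13, the G protein that relays S1PR2, was at 13.30, 12.48 and 12.83 in BL lines, against 12.10, 12.04, 11.99, 11.54 and 11.94 in ABC DLBCL lines, and BCL7A, a subunit of SWI/SNF remodellers, at 13.04, 12.66 and 13.54 in BL lines, against 8.37, 12.19, 10.87, 12.43 and 10.49 in ABC DLBCL lines. Both had every BL line above every ABC DLBCL line, with differences of 0.95 (SE 0.25, adjusted p = 0.219) and 2.21 (SE 0.83, adjusted p = 0.354). Of 12 diagnostic markers of BL, 1 was called, A4GALT, and the median was 0.65, which was -0.06 without Ramos. BCL2, the anti-apoptotic protein typically absent in BL, was at 5.44, 9.60 and 6.48 in BL lines, against 13.16, 10.35, 13.01, 13.11 and 9.002 in ABC DLBCL lines. Raji exceeded SU-DHL-8, so the groups overlapped and the difference of -4.55 was not past the threshold (SE 1.23, adjusted p = 0.225). TCL1A, a lymphoid oncogene, was high in all lines but HBL-1, at 14.46, 14.10 and 16.24 in BL lines, against 5.02, 15.92, 13.28, 13.74 and 15.71 in ABC DLBCL lines (difference 2.20, SE 2.24, adjusted p = 0.723). The call of A4GALT, the only one here, was lost without any of 5 lines, as given above, with adjusted p from 0.0506 to 0.0583.

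Cell cycle genes had small median differences, with wide spread in single genes. Among 13 genes of mitosis and proliferation 0 were called by limma, 3 had an unadjusted p under 0.05 and the median was 0.07, and among 17 regulators of the G1 to S step 0 were called, 5 had an unadjusted p under 0.05 and the median was 0.45. MKI67, the proliferation antigen, was at 14.42, 12.37 and 12.61 in BL lines, against 13.24, 13.14, 13.69, 13.35 and 14.25 in ABC DLBCL lines (difference -0.40, SE 0.48, adjusted p = 0.769). CDK1, the mitotic kinase, had every BL line above every ABC DLBCL line, at 12.67, 12.65 and 12.52 in BL lines, against 11.53, 11.71, 11.82, 12.07 and 12.22 in ABC DLBCL lines (difference 0.74, SE 0.23, adjusted p = 0.268). CDKN2A, the locus of p16 and ARF, was at 9.39, 12.48 and 12.63 in BL lines, against 7.51, 4.55, 5.16, 4.55 and 12.99 in ABC DLBCL lines. SU-DHL-8 was the highest line of all and MD903 and OCI-Ly3 had 0 reads, and the difference of 4.55 (SE 1.90, adjusted p = 0.388) became 6.06 with an adjusted p of 0.0413 (range 0.0322 to 0.631) without SU-DHL-8. RB1, the retinoblastoma protein, was at 11.51, 11.34 and 10.42 in BL lines, against 13.82, 10.64, 13.64, 14.25 and 13.20 in ABC DLBCL lines, and its difference of -2.02 (SE 0.75, adjusted p = 0.350) became -2.64 with an adjusted p of 0.0329 (range 0.00893 to 0.609) without MD903.

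NF-kB factors and targets had 0 of 28 called by limma, 3 at an unadjusted p under 0.05, with 23 of 28 differences negative and a median of -0.79. TNFAIP3, the deubiquitinase A20 that limits NF-kB, was at 9.58, 11.31 and 9.16 in BL lines, against 13.86, 11.80, 11.93, 12.70 and 12.64 in ABC DLBCL lines, with every BL line lower (difference -2.57, SE 0.60, adjusted p = 0.152). NFKBIZ, a nuclear cofactor of NF-kB, was at 8.73, 9.47 and 7.57 in BL lines, against 14.06, 11.87, 13.65, 12.43 and 8.62 in ABC DLBCL lines. SU-DHL-8 was level with the BL lines, and the difference of -3.53 (SE 1.13, adjusted p = 0.285) became -4.41 with an adjusted p of 0.0227 (range 0.00734 to 0.545) without it. Raji resembled ABC DLBCL in several targets: EBI3, a cytokine subunit, was at 5.30, 12.63 and 4.90 in BL lines, against 12.48, 7.36, 11.29, 12.46 and 4.93 in ABC DLBCL lines, and CCL22, a chemokine, at 5.60, 11.70 and 5.36 in BL lines, against 11.16, 7.16, 9.44, 11.30 and 4.55 in ABC DLBCL lines. In both, Raji, HBL-1 and OCI-Ly3 were above 11 and Daudi, Ramos and SU-DHL-8 below 6. Toll-like receptor and MYD88 genes had 0 of 10 called by limma, 1 at an unadjusted p under 0.05 and a median of 0.11. MYD88 itself was at 11.46, 11.65 and 11.96 in BL lines, against 12.44, 12.48, 13.20, 13.16 and 11.72 in ABC DLBCL lines (difference -0.91, SE 0.36, adjusted p = 0.369).

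Cytokine, JAK and STAT genes had 0 of 22 called by limma, 3 at an unadjusted p under 0.05 and a median of -0.69. STAT3, the factor downstream of interleukins 6 and 10, was at 10.23, 10.20 and 10.19 in BL lines, against 13.42, 10.30, 14.36, 13.74 and 10.08 in ABC DLBCL lines (difference -2.17, SE 1.02, adjusted p = 0.428). Its feedback inhibitor SOCS3 was at 4.55, 4.76 and 4.55 in BL lines, against 10.29, 4.55, 10.94, 10.74 and 4.82 in ABC DLBCL lines (difference -3.65, SE 1.64, adjusted p = 0.417). For both, HBL-1, OCI-Ly10 and OCI-Ly3 were high and MD903 and SU-DHL-8 were at BL levels. IL4R, the receptor chain of interleukin 4, was the gene of this list with every BL line above, at 13.25, 12.76 and 13.36 in BL lines, against 11.38, 10.01, 12.35, 10.67 and 10.56 in ABC DLBCL lines (difference 2.13, SE 0.49, adjusted p = 0.152), and CISH, an inhibitor of STAT5 signalling, the one with every BL line below (difference -1.66, SE 0.52, adjusted p = 0.278).

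Interferon response genes had 0 of 19 called by limma, 4 at an unadjusted p under 0.05 and a median of -0.80, which was 0.07 without OCI-Ly10. MX2, an antiviral GTPase, came closest, at 7.56, 5.56 and 9.14 in BL lines, against 11.98, 11.88, 12.09, 12.43 and 10.70 in ABC DLBCL lines (difference -4.40, SE 0.74, adjusted p = 0.0567). Every BL line was below every ABC DLBCL line, as for IRF7 and USP18, and the adjusted p of MX2 was 0.0187 without Ramos and 0.0303 without SU-DHL-8 (range 0.0187 to 0.275). IFI44L, another interferon-induced gene, was at 9.41, 5.17 and 4.55 in BL lines, against 9.61, 4.76, 7.93, 4.70 and 5.26 in ABC DLBCL lines, high in Daudi, HBL-1 and OCI-Ly10. IFITM genes have close copies of each other, so their reads are uncertain and they are not described singly.

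B-cell receptor genes had 0 of 19 called by limma, 2 at an unadjusted p under 0.05 and a median of -0.22, which was 0.07 without HBL-1. FYN, a Src family kinase, was the one with every BL line above, at 10.15, 11.08 and 11.26 in BL lines, against 9.38, 8.80, 6.56, 7.49 and 10.06 in ABC DLBCL lines (difference 2.37, SE 0.78, adjusted p = 0.297). PTPN6, the phosphatase SHP1, was at 7.83, 10.88 and 9.97 in BL lines, against 12.54, 12.17, 13.99, 12.08 and 9.33 in ABC DLBCL lines (difference -2.46, SE 1.01, adjusted p = 0.382), and SU-DHL-8 lay among the BL lines. The kinases BTK and SYK had differences of 0.23 (SE 0.28) and -0.53 (SE 0.45).

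Of 11 regulators of PI3K, mTOR and cyclic AMP, 1 was higher (DEPTOR) and 1 lower in BL, and the median was 0.02. The lower call was lost without Daudi, Ramos, OCI-Ly10 or OCI-Ly3, with voom and in both larger fits, that of all libraries of the first type and that of all 34 lines. PRKAR2B, a regulatory subunit of the cyclic AMP kinase, was at 14.02, 12.10 and 14.04 in BL lines, against 8.82, 10.04, 8.19, 10.43 and 6.12 in ABC DLBCL lines, with no overlap (difference 4.67, SE 0.95, adjusted p = 0.110). Without SU-DHL-8, the lowest line, it was 4.02 with an adjusted p of 0.0415 (range 0.0222 to 0.286). PDE4B, which degrades cyclic AMP, was at 8.71, 10.05 and 8.86 in BL lines, against 11.63, 10.66, 11.84, 11.05 and 10.46 in ABC DLBCL lines, and INPP5D, the lipid phosphatase SHIP1, at 12.34, 12.11 and 11.60 in BL lines, against 14.37, 12.65, 13.11, 13.03 and 12.996 in ABC DLBCL lines. Every BL line was below every ABC DLBCL line in both, with differences of -1.92 (SE 0.45, adjusted p = 0.152) and -1.21 (SE 0.39, adjusted p = 0.293).

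CXCR4, the receptor of CXCL12 and the target the series was about, was high in BL and variable in ABC DLBCL. It was at 14.17, 13.68 and 15.53 in BL lines, against 8.84, 11.93, 13.86, 10.18 and 14.59 in ABC DLBCL lines, or 14.46 ± 0.96 in BL and 11.88 ± 2.42 in ABC DLBCL (SD, n = 3 and 5). SU-DHL-8 and OCI-Ly10 reached BL levels while HBL-1 was the lowest line. The difference was 2.58 (SE 1.25), with p = 0.179 in a two-sided exact permutation test over the 56 assignments of the 8 lines, for which the smallest possible p is 0.0357, and an adjusted p of 0.437 in limma. Leaving out single lines gave differences of 1.82 to 3.26 (exact p 0.114 to 0.476).

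Among the 10 chemokine and positioning receptors tested, S1PR2 was called, and the median difference was 0.18, which was -0.92 without Raji, 0.996 without Ramos and -0.35 without SU-DHL-8. S1PR1, which directs B cells out of lymphoid tissue and opposes S1PR2, was at 4.89, 4.96 and 5.10 in BL lines, against 9.97, 8.40, 7.81, 10.23 and 6.78 in ABC DLBCL lines. Every BL line was near silence and every ABC DLBCL line above, and the difference of -3.65 (SE 0.79, adjusted p = 0.127) became -4.11 with an adjusted p of 0.0320 (range 0.0170 to 0.438) without SU-DHL-8. CCR7, the receptor of the T-cell zone, was at 5.03, 11.39 and 5.76 in BL lines, against 12.32, 8.73, 14.37, 14.60 and 9.04 in ABC DLBCL lines (difference -4.42, SE 1.85, adjusted p = 0.388), with Raji inside the ABC DLBCL range. CXCR5, the follicle receptor, was at 12.46, 11.20 and 10.28 in BL lines, against 14.67, 11.23, 12.95, 14.61 and 5.63 in ABC DLBCL lines, and SU-DHL-8 was the low line (difference -0.51, SE 1.88, adjusted p = 0.942). P2RY8, which signals through GNA13 as S1PR2 does, was at 12.60, 12.59 and 11.38 in BL lines, against 12.25, 10.74, 9.17, 11.81 and 8.74 in ABC DLBCL lines (difference 1.65, SE 0.83, adjusted p = 0.445). The call of S1PR2 was lost without Daudi, Raji, Ramos, OCI-Ly10 or OCI-Ly3, with adjusted p from 0.0583 to 0.104.

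**Figure D4:**
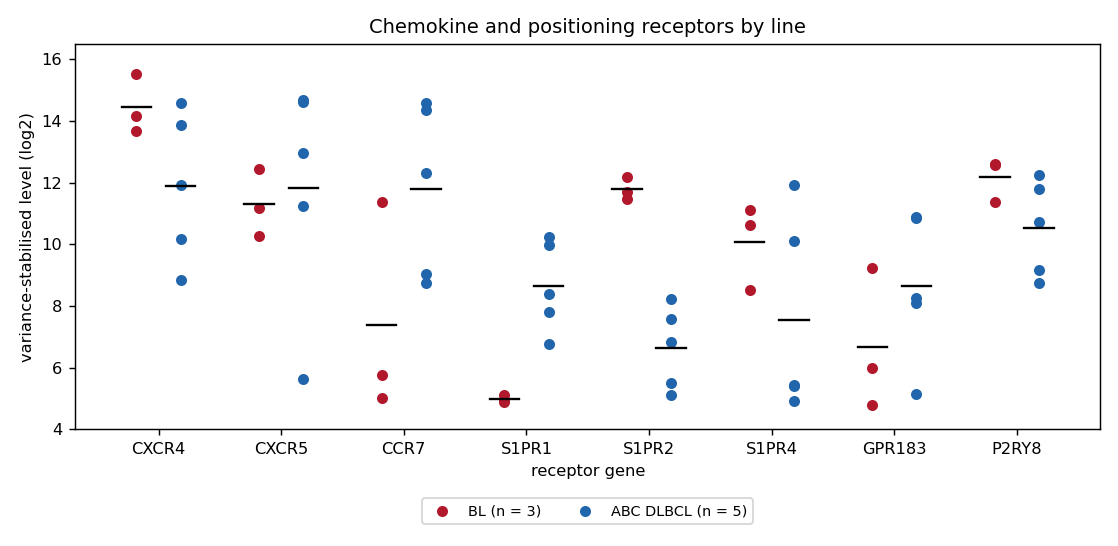
Level of 8 chemokine and positioning receptors, as the variance-stabilised level in log2 units, in the 3 BL lines (red, left of each pair) and the 5 ABC DLBCL lines (blue, right); points are lines and bars the group means. S1PR2 and S1PR1 are the receptors whose groups do not overlap, S1PR2 higher in BL at 11.46 to 12.20 and S1PR1 lower at 4.89 to 5.10.

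Immunoglobulin constant and surrogate chains had 0 of 15 called by limma, 4 at an unadjusted p under 0.05, with a median of -0.49. That median was 0.33 without SU-DHL-8, -1.27 without HBL-1, -1.32 without OCI-Ly3 and 0.26 with voom. IGHM, the heavy chain of IgM, was at 17.32, 17.82 and 18.93 in BL lines, against 19.42, 15.99, 17.84, 13.06 and 5.54 in ABC DLBCL lines, where SU-DHL-8 was near silence (difference 3.65, SE 2.72, adjusted p = 0.614). IGKC, the kappa light chain, varied by line within both groups and was at 15.37, 17.31 and 4.55 in BL lines, against 18.10, 5.82, 16.80, 4.55 and 16.75 in ABC DLBCL lines, at 4.55 in Ramos and OCI-Ly3. The surrogate light chain genes VPREB1 and VPREB3 of early B cells were highest in SU-DHL-8, at 11.93 and 12.55. VPREB3 was at 11.55, 11.16 and 12.04 in BL lines, against 8.75, 6.19, 5.45, 6.36 and 12.55 in ABC DLBCL lines, and its difference of 3.72 (SE 1.46, adjusted p = 0.367) became 4.90 with an adjusted p of 0.0289 (range 0.0242 to 0.603) without that line. VPREB1 had a difference of 1.31 (SE 1.66, adjusted p = 0.782), which became 2.78 with an adjusted p of 0.0208 (range 0.0189 to 0.906). IGHG4 had every BL line lower (-4.69, SE 1.13, adjusted p = 0.167, and 0.0142 without MD903, range 0.00298 to 0.483), but constant gamma genes are near-identical copies and the reads may be split between them.

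Antigen presentation genes had 0 of 13 (class I) and 0 of 12 (class II) called by limma, 2 each at an unadjusted p under 0.05, with medians of 1.04 and 0.35. TAP2, a subunit of the peptide transporter, was at 11.76, 11.77 and 11.21 in BL lines, against 8.94, 10.53, 6.29, 9.66 and 10.70 in ABC DLBCL lines, with every BL line above, as for TAP1 and PSMB9 (difference 2.35, SE 0.91, adjusted p = 0.363). OCI-Ly10 was far below the rest for TAP1, TAP2, PSMB8 and PSMB9, and without it the class I median was 0.39. B2M, the light chain of class I, was at 12.84, 15.81 and 16.30 in BL lines, against 14.92, 15.28, 16.11, 16.21 and 15.92 in ABC DLBCL lines, lowest in Daudi, a line known to lack class I at its surface. HLA-DOB, a modulator of class II loading in B cells, was at 9.86, 10.09 and 9.75 in BL lines, against 6.97, 8.40, 5.12, 7.05 and 5.97 in ABC DLBCL lines, and HLA-DOA, its partner, at 12.69, 12.24 and 12.07 in BL lines, against 11.24, 10.92, 10.53, 10.89 and 11.38 in ABC DLBCL lines. Neither overlapped, with differences of 3.20 (SE 0.70, adjusted p = 0.134) and 1.34 (SE 0.27, adjusted p = 0.110). Reads of the polymorphic HLA genes depend on the match of each line's alleles to the genome.

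Survival and contact genes varied within the groups. The BCL2 family had 0 of 15 called by limma and a median of 0.19, and costimulation, checkpoint and adhesion genes 0 of 17 and 0.02, with 3 each at an unadjusted p under 0.05. Without Raji these medians were -0.13 and -0.79. HRK, a pro-apoptotic BH3 protein, was at 10.93, 8.22 and 9.85 in BL lines, against 5.60, 9.45, 5.45, 4.70 and 8.14 in ABC DLBCL lines (difference 2.997, SE 1.15, adjusted p = 0.360). BCL2L11, the BH3 protein BIM, was at 11.32, 11.98 and 9.96 in BL lines, against 12.60, 10.41, 13.65, 13.39 and 12.02 in ABC DLBCL lines (difference -1.33, SE 0.75, adjusted p = 0.496). CD44, the hyaluronan receptor, was at 8.88, 5.26 and 8.16 in BL lines, against 15.83, 5.01, 13.36, 15.52 and 10.79 in ABC DLBCL lines. MD903 was the lowest line of all and HBL-1 and OCI-Ly3 the highest, so the difference of -4.67 had a large error (SE 2.30, adjusted p = 0.439). ITGB2, an integrin chain, was at 8.01, 11.02 and 6.55 in BL lines, against 10.33, 10.18, 10.57, 10.62 and 10.28 in ABC DLBCL lines, and without Raji its difference of -1.87 (SE 0.84, adjusted p = 0.416) was -3.11 with an adjusted p of 0.0475 (range 0.0475 to 0.725).

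The 7 microRNA host genes tested all had negative differences, with a median of -0.95, 0 called by limma and 1 at an unadjusted p under 0.05. MIR155HG, the host of miR-155, a regulator of B-cell activation that is high in ABC DLBCL, was at 6.31, 8.76 and 4.90 in BL lines, against 11.35, 9.60, 11.53, 11.31 and 5.59 in ABC DLBCL lines. SU-DHL-8 lay below Daudi and Raji, the other 4 ABC DLBCL lines above every BL line, and the difference was -3.22 (SE 1.45, adjusted p = 0.417). MIR17HG, the host of the MYC-induced miR-17-92 cluster, was at 9.11, 6.59 and 7.48 in BL lines, against 8.56, 8.93, 9.21, 8.69 and 7.64 in ABC DLBCL lines (difference -0.88, SE 0.63, adjusted p = 0.593). Host transcripts are not the mature microRNAs, which were not measured. The mature arm of the host with the widest difference is given from RefSeq (GRCh38.p14, chr21:25573983-25574006, plus strand) with the seed, bases 2 to 8, in capitals.
hsa-miR-155-5p: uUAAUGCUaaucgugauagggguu

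Mitochondrially encoded genes had 0 of 13 called by limma, 1 called by voom, 10 at an unadjusted p under 0.05, a median of -1.27 and every BL line below every ABC DLBCL line in 9. Over all genes tested, every BL line was below every ABC DLBCL line in 4.19%. MT-ND4, a subunit of complex I, was at 17.71, 17.60 and 18.01 in BL lines, against 19.36, 19.50, 19.78, 19.66 and 19.40 in ABC DLBCL lines (difference -1.77, SE 0.44, adjusted p = 0.179). Histone genes had 0 of 9 called by limma, 0 at an unadjusted p under 0.05, with a median of -0.68 (0.02 without Daudi) and H1-2 and H2BC12 highest in OCI-Ly3, at 13.37 and 13.99. Among cell identity lists, B-cell markers had 0 of 9 called and a median of 0.22, T-cell markers 0 of 2 and 0.06, myeloid markers 0 of 3 and -0.09, and stromal markers 0 of 2 and -0.91, all by limma, and no epithelial marker entered the test. At an unadjusted p under 0.05 there were 2 B-cell, 0 T-cell, 0 myeloid and 1 stromal markers. CD22, an inhibitory receptor of B cells, had every BL line above, at 14.44, 14.27 and 14.74 in BL lines, against 12.53, 12.37, 12.85, 13.96 and 11.28 in ABC DLBCL lines (difference 1.89, SE 0.51, adjusted p = 0.225). PAX5, the B-cell identity factor, had every BL line below (difference -1.02, SE 0.33, adjusted p = 0.297).

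**Figure D5:**
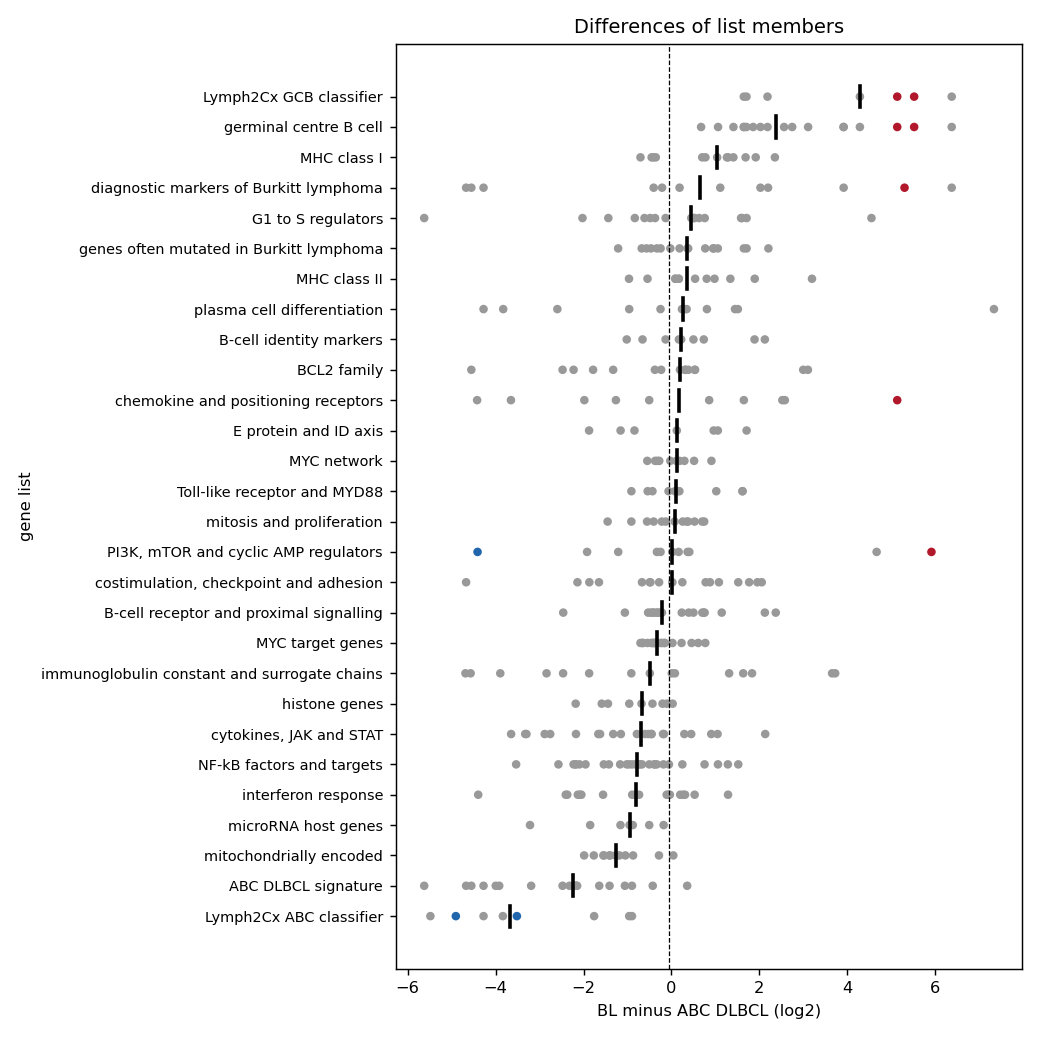
Difference between BL (n = 3) and ABC DLBCL (n = 5) lines in log2 units for each tested gene of the lists with at least 5 tested genes; grey points are genes not past the threshold, red and blue points genes called higher and lower in BL, black bars list medians and the dashed line the median of all genes (-0.05). The lists run from the GCB genes of Lymph2Cx (median 4.29) at the top to its ABC genes (median -3.68) at the bottom.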

How the data were processed

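RNA sequencing of 34 lymphoma cell lines was used, 1 library per line, of which 8 entered the comparison. The authors deposited log2 values, variance-stabilised read counts of 31975 genes. Per the submitters' processing notes, STAR 2.5.3a, R 3.6.1, DESeq2 1.26.0 and GRCh38 were used, while the annotation and strand setting are not given in the sources used here. The transform was inverted to whole reads (100% of values within 0.05 of a whole number), giving 22.6 to 165 M reads per line. Genes entered where at least 3 of the 8 lines exceeded the lowest value by 1 log2 unit. limma 3.58.1 in R 4.3.3 (trended prior, lines as replicates) tested BL minus ABC DLBCL, checked on simulated counts. CXCR4 was tested by exact permutation in Python 3.11.15.

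Genes were named by rule: the 14 highest and 14 lowest differences among called genes with symbols and without overlap (all 11 lower ones), called list members, CXCR4, MYC, BCL6, IRF4, BCL2, CD44, ID3, TCF3, MIR155HG and MIR17HG. Other genes were chosen after their values were seen, and a few genes that entered the tests and counts are not reported here. Members and the 32 gene lists were chosen with earlier results of these data known. Alternatives were other scalings, filters, priors and sets of lines, among them each line left out. Promoter and microRNA sequences came from RefSeq.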

Additional observations from a re-analysis of the deposited data

Results flagged for a closer look

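Among the 5 ABC DLBCL lines, 3 of the 35 genes examined had 1 line far from the other 4, by the gap to its nearest neighbour as a share of the whole range, set against Dixon's critical value of 0.71. Chance flags about 1 in 20 groups. For A4GALT, the Gb3 synthase, the share was 0.833, with MD903 at 7.37 and the others at 4.55 to 5.02. For HDGFL3 it was 0.769, with OCI-Ly10 at 10.01 and the others at 9.34 to 9.49. For GNG7, the G protein subunit, it was 0.714, with HBL-1 at 7.15 and the others at 4.77 to 5.45. In each of the 3 genes the line lay on its own side of every BL line, which the rule for naming these genes required.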

How the results depend on the processing

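The 51 called genes kept their direction in every alternative that tested them, and no named gene reversed. With lines left out, the direction of the 51 could not have come out otherwise, since their groups did not overlap. The medians of 16 of the 31 lists with tested genes changed sign in at least 1 alternative, among them those of immunoglobulin, chemokine receptor, interferon, plasma cell, E protein, histone and diagnostic genes. The germinal centre, GCB and ABC lists were among the 15 that kept theirs. The main count of 51 (40 higher, 11 lower) was 126 (69 and 57) when all libraries of the first type shared 1 fit and 31 (17 and 14) over all 34 lines. It was 36 (20 and 16) with a stricter filter and 21 (17 and 4) with voom on the reads. Leaving out 1 line gave 27 to 166 in all, 19 to 78 higher and 8 to 88 lower. The share of higher genes among the calls, 78.4%, was 55.6% with the stricter filter, 54.8% in both larger fits and 47.0% without SU-DHL-8. The causes were not tested. List medians moved beyond the spread between lines with voom, to 5.58 for the GCB genes of Lymph2Cx, 3.35 for germinal centre, -0.52 for E protein and -2.53 for stromal genes. Voom differences are in log2 CPM, without the compression near 0 reads, while the spread was taken on the variance-stabilised scale. A move with voom can therefore be a change of scale. With 1 line left out the E protein median ran from -0.71 to 1.08 and that of MHC class I from 0.39 to 1.11.

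A fit without MD903 and SU-DHL-8, chosen after the data were seen because of their low values of activated-type genes, called 648 genes (164 higher, 484 lower). It supports nothing for those lists, since the lines were picked on their values. Its list medians were -3.97 for the activated-type signature, -1.71 for cytokines and -0.38 for E protein genes, and BCL2, CD44, TCF3 and MIR155HG passed the threshold in it. Over all alternatives, named genes kept their side of the threshold 627 times, lost it 82 times and gained it 5 times, and list medians stayed within the spread 639 times and moved beyond it 11 times. Voom and the filter on the mean of the group means were also chosen after the data were seen.

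Count-model tests planned as alternatives were not run, since the deposited values are log2, although whole reads were recovered and would have allowed them. Voom on the recovered reads was run in their place. No paired analysis was possible because the labels number no replicates across the lymphomas. With 3 lines against 5, 1 line can decide a call, and Daudi was the shallowest of the 8 libraries at 22.6 M reads.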

Other observations

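NU-DUL-1, the ABC DLBCL line left out for its library type, was below every BL line in 33 of the 40 higher genes and above every BL line in 10 of the 11 lower ones. The shares over all genes tested were not computed, and the NU-DUL-1 library was of another type, so these counts are no independent support. The exceptions among the higher genes were GNG7 (11.90 in NU-DUL-1), INSR (12.38), TPD52 (12.85), COL4A3 (9.10), PLG (7.23), RP11-87G24.3 (9.52) and RP11-87G24.6 (8.54), and the exception among the lower genes was ATF5 (9.63). With NU-DUL-1 added to the fit, limma's adjusted p was 0.345 for GNG7, 0.504 for INSR, 0.120 for KCNN3 and 0.307 for ATF5. Over the 17 other libraries of the first type, 11 of mantle cell and 6 of GCB DLBCL lines, the BL lines were above all of them in 5 of the 40 higher genes, namely KLF15, AZGP1, RRM2B, PDZD7 and AZGP1P1. BL lines were below all 17 in 0 of the 11 lower genes. For these counts too, the share over all genes tested was not computed. AZGP1P1 is a pseudogene copy of AZGP1 that lies 4731 bases from it, so reads may be split between them.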
